A study of Mus musculus with 6 samples.

Results

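The Hox clusters are 4 groups of homeobox genes that lie side by side, Hoxa on chromosome 6, Hoxb on chromosome 11, Hoxc on chromosome 15 and Hoxd on chromosome 2 of the mouse. Their DNA methylation was measured by MeDIP-seq, in which an antibody pulls down methylated DNA that is then sequenced. The 39 protein-coding genes with symbols Hoxa, Hoxb, Hoxc or Hoxd and a number were taken from 22219 protein-coding genes. A peak, a place where MeDIP reads pile up above the local background, was counted as a Hox peak where its summit lay in one of these genes or within 5 kb of one. This gave 186 peaks over 6 samples, which, joined wherever 2 of them shared at least 1 bp, made 56 Hox regions of the 170444 in the genome.

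The samples were primary mesangial cells of the mouse, contractile cells that support the capillary loops of the glomerulus, kept in high glucose (25.5 mM) with bovine serum and used after only a few passages. The 3 control samples had no TGF-β1 in their labels, and the 3 treated samples had been given TGF-β1, a cytokine that drives fibrosis in kidney disease, at 10 ng/ml over 72 hours. High glucose was thus shared by both groups, and nothing in the labels says that the samples of a group came from separate cultures or animals, so p-values measure only the spread between these samples. The labelled cell type could not be checked here, because peak lists of DNA methylation hold no expression of marker genes.

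Hox genes encode transcription factors that bind DNA through the homeodomain, and along each cluster their order matches the order in which they are switched on from the head end to the tail end of the embryo. Genes with the same number in different clusters, called paralogues, arose from a common ancestor gene. In the kidney, the posterior Hox11 paralogues act with Eya1, Six2 and Pax2 in the mesenchyme from which nephrons form, and the Hox10 paralogues act in the stroma, from which mesangial cells descend. Silent Hox genes are held by Polycomb proteins, and their CpG islands are for the most part free of DNA methylation in embryonic cells.

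Sequencing gave 10319496, 9407103 and 11494356 reads in control and 12748318, 12634300 and 13291419 in TGF-β1-treated samples, in the order of replicates 1, 2 and 3, which is used for all values per group below. Every treated sample was deeper than every control sample, and these differences cannot be told apart from the treatment. Of the 25231 regions in the genome called in exactly 2 samples, 3124 (12.4%) were called in control replicate 3 and TGF-β1 replicate 2, more than in any other pair, and these had a median of 3.08 CpG per 100 bp. This pair held 5 of the 9 Hox regions called in exactly 2 samples, among them those at Hoxa6, Hoxd11, Hoxd9 and Hoxd4, and results that turn on these samples are given with and without them.

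Peaks covered the homeobox, the 180 bp that encode the homeodomain, in some paralogues and not in others. Those of group 11 (Hoxa11, Hoxc11 and Hoxd11), chosen after the peaks were seen, are shown because paralogues of similar sequence differed in whether a peak covered them, and that of Hoxc9 because a peak covered it in every sample. Overlap with a homeobox was counted from 1 bp. They are written 5′ to 3′ on the coding strand, from the mm9 genome, with each CpG, the site that DNA methylation marks, in capitals. They lie at chr6:52193401-52193580 (Hoxa11, minus strand), chr15:102786911-102787090 (Hoxc11, plus strand), chr2:74521974-74522153 (Hoxd11, plus strand) and chr15:102814361-102814540 (Hoxc9, plus strand), and each is coding sequence.
Hoxa11: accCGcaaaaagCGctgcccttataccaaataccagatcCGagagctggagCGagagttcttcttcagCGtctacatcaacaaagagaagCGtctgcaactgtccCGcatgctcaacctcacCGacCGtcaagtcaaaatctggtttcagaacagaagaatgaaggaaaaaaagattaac
Hoxc11: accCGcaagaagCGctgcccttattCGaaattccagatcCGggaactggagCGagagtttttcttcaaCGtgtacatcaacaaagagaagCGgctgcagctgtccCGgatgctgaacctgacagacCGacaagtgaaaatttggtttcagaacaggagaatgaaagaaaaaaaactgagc
Hoxd11: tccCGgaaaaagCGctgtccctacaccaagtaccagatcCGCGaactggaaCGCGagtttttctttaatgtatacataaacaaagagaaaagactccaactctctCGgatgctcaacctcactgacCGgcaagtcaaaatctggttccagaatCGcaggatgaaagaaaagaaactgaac
Hoxc9: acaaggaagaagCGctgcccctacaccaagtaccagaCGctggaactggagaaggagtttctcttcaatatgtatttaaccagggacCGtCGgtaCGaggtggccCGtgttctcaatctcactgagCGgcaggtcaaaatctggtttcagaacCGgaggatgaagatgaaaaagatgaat

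The homeoboxes of Hoxa11, Hoxc11 and Hoxd11 each held 9 CpG. A peak lay over all 180 bp of that of Hoxa11 in all 6 samples, a peak in control replicate 3 alone reached 44 bp of that of Hoxd11, and none reached that of Hoxc11. The sequences were 86.7% identical between Hoxa11 and Hoxc11, with 8 CpG at shared positions, and 80.6% identical between Hoxa11 and Hoxd11, with 6 shared. The homeobox of Hoxc9 held 8 CpG and lay wholly under a peak in all 6 samples. No peak over a homeobox means only that no peak was called, since a peak list leaves out whatever lay below the caller's threshold.

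Of the 39 homeoboxes, 11 shared at least 1 bp with a peak in at least 1 sample and 3 in all 6, Hoxa11 and Hoxc9 among them. With at least 90 of the 180 bp under a peak there were 9 and 2, and with all 180 bp 6 and 2, the 2 being Hoxa11 and Hoxc9. The share of other coding stretches of this length under a peak was not counted, so no contrast with them is drawn. Hoxa11 is needed for limb and kidney and Hoxc9 for the thoracic identity of motor neurons. From 1 bp, the homeobox of Hoxa2 was under a peak in 5 samples (not TGF-β1 replicate 2), that of Hoxd10 in 5 (not control replicate 3) and that of Hoxc6 in 4 (control replicates 2 and 3 and TGF-β1 replicates 1 and 2). The other 5, of Hoxa5, Hoxa6, Hoxc5, Hoxd8 and Hoxd11, were each reached by a peak in 1 sample, over 14 bp at Hoxa6, 44 at Hoxd11 and 99 to 171 bp at the other 3. No homeobox of the Hoxb cluster was reached by a peak in any sample. The 11 homeoboxes with a peak held a median of 9 CpG (range 4 to 17) and the 28 without one a median of 11 (range 5 to 18), so the number of CpG overlapped widely between them.

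**Figure D1:**
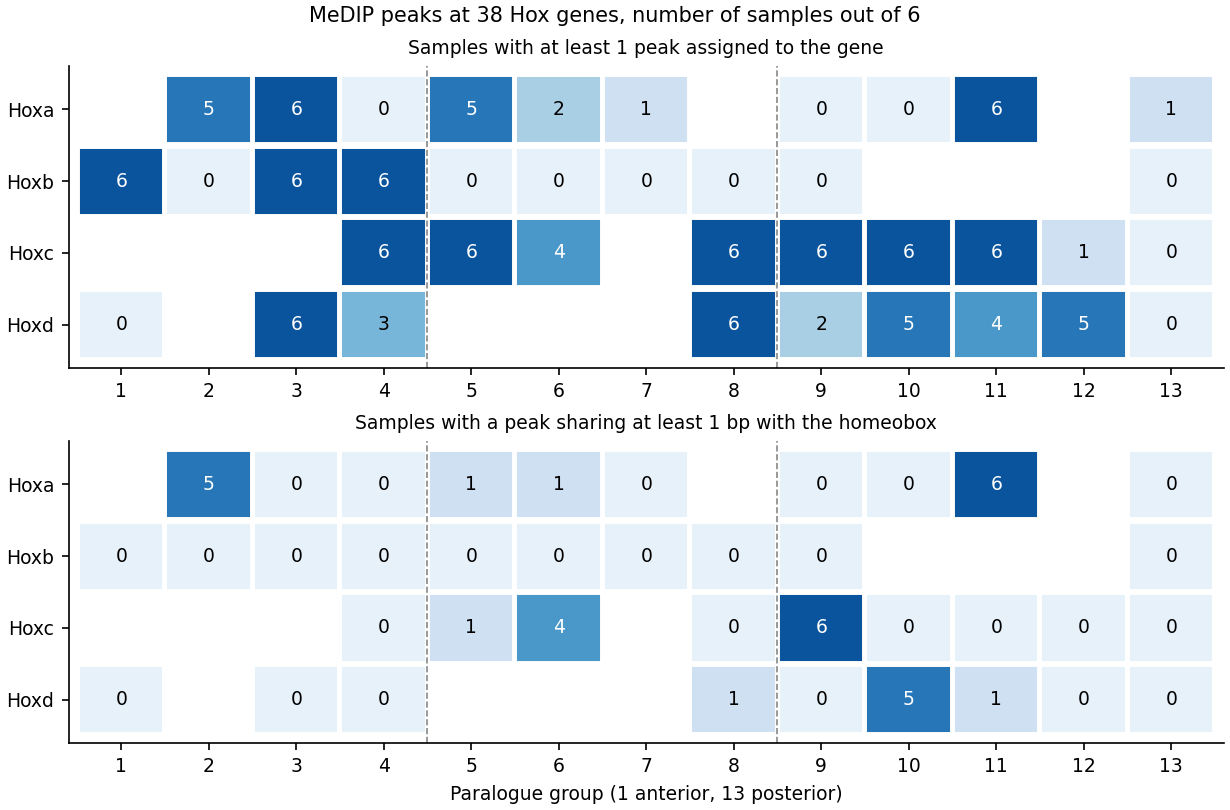
Number of samples, out of 6, with a peak assigned to each Hox gene (upper panel) and with a peak sharing at least 1 bp with its homeobox (lower panel), by cluster (vertical axis) and paralogue group (horizontal axis), where empty places are genes that the mouse lacks or that are not shown. The Hoxb genes of groups 5 and above show 0 in both panels, and the homeoboxes of Hoxa11 and Hoxc9 show 6.

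Each peak was assigned to the Hox gene whose coding sequence was nearest. By this count 26 genes had a peak in some sample and 13 had none. With every summit in a gene or within 5 kb of it counted, 21 of the 39 (53.8%) had a peak in every sample. This was near the 56.5% of all protein-coding genes. The genes with no peak assigned were Hoxa4, Hoxa9, Hoxa10, Hoxb2, Hoxb5, Hoxb6, Hoxb7, Hoxb8, Hoxb9, Hoxb13, Hoxc13, Hoxd1 and Hoxd13. Of these, Hoxa10 still had a summit within 5 kb in every sample. So did Hoxb2 in all but TGF-β1 replicate 2, Hoxd13 in all but control replicate 1, and Hoxa9 in TGF-β1 replicate 1 alone. By nearest coding sequence, 7 of the 10 Hoxb genes thus had none, against 3 of 11 Hoxa, 1 of 9 Hoxc and 2 of 9 Hoxd genes. The share of all genes with none was not counted, so no contrast with other genes is drawn.

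In the Hoxa cluster, Hoxa3, a patterning gene of the pharyngeal arches, had 2, 1 and 1 in control and 2, 2 and 2 in treated samples. Hoxa5, a gene of lung and cervical development, had 2, 1 and 1 in control and 2, 0 and 2 in treated samples. The groups overlapped at Hoxa3 and Hoxa5. Hoxa11, equal to Hoxa5 in its total of 8, had 2, 1 and 2 in control and 1 in each treated sample.

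In the Hoxb cluster, peaks were assigned to Hoxb1, Hoxb3 and Hoxb4 alone, genes of hindbrain identity. Hoxb4 had 2 in each control sample and 3, 3 and 4 in the treated samples, so that every treated sample, each also deeper, had more than every control sample. It was the only 1 of the 39 genes with this pattern, and 0 had the reverse. Counted over each gene with 5 kb on either side, 1 of the 39 (Hoxb4) had it, against 3.15% of all protein-coding genes, and 0 the reverse, against 0.279%. Inside Hoxb4 itself there was 1 summit in each of the 6 samples, and the other peaks assigned to it lay beyond its end, at the start of a long Hoxb3 transcript or within it. Hoxb1 had 1, 2 and 2 in control and 1, 2 and 1 in treated samples, and Hoxb3 had 1, 1 and 2 in control and 2, 1 and 1 in treated samples. Both of these overlapped between the groups.

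In the Hoxc cluster, Hoxc4 had 2, 3 and 3 peaks in control and 2, 3 and 2 in treated samples. Hoxc11 had 1 in every sample but TGF-β1 replicate 2, which had 3. Hoxc5, Hoxc8 and Hoxc10 had 7 each over the 6 samples, and Hoxc9 had 1 in every sample. In the Hoxd cluster, Hoxd3 had 3, 2 and 2 in control and 2, 1 and 3 in treated samples, and Hoxd8 had 2, 1 and 1 in control and 1, 2 and 2 in treated samples. Hoxd4 had 3 in control replicate 3, 2 in TGF-β1 replicate 2, 1 in TGF-β1 replicate 3 and none elsewhere. Hoxd12, also with 6 in all, lacked a peak only in control replicate 1.

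**Figure D2:**
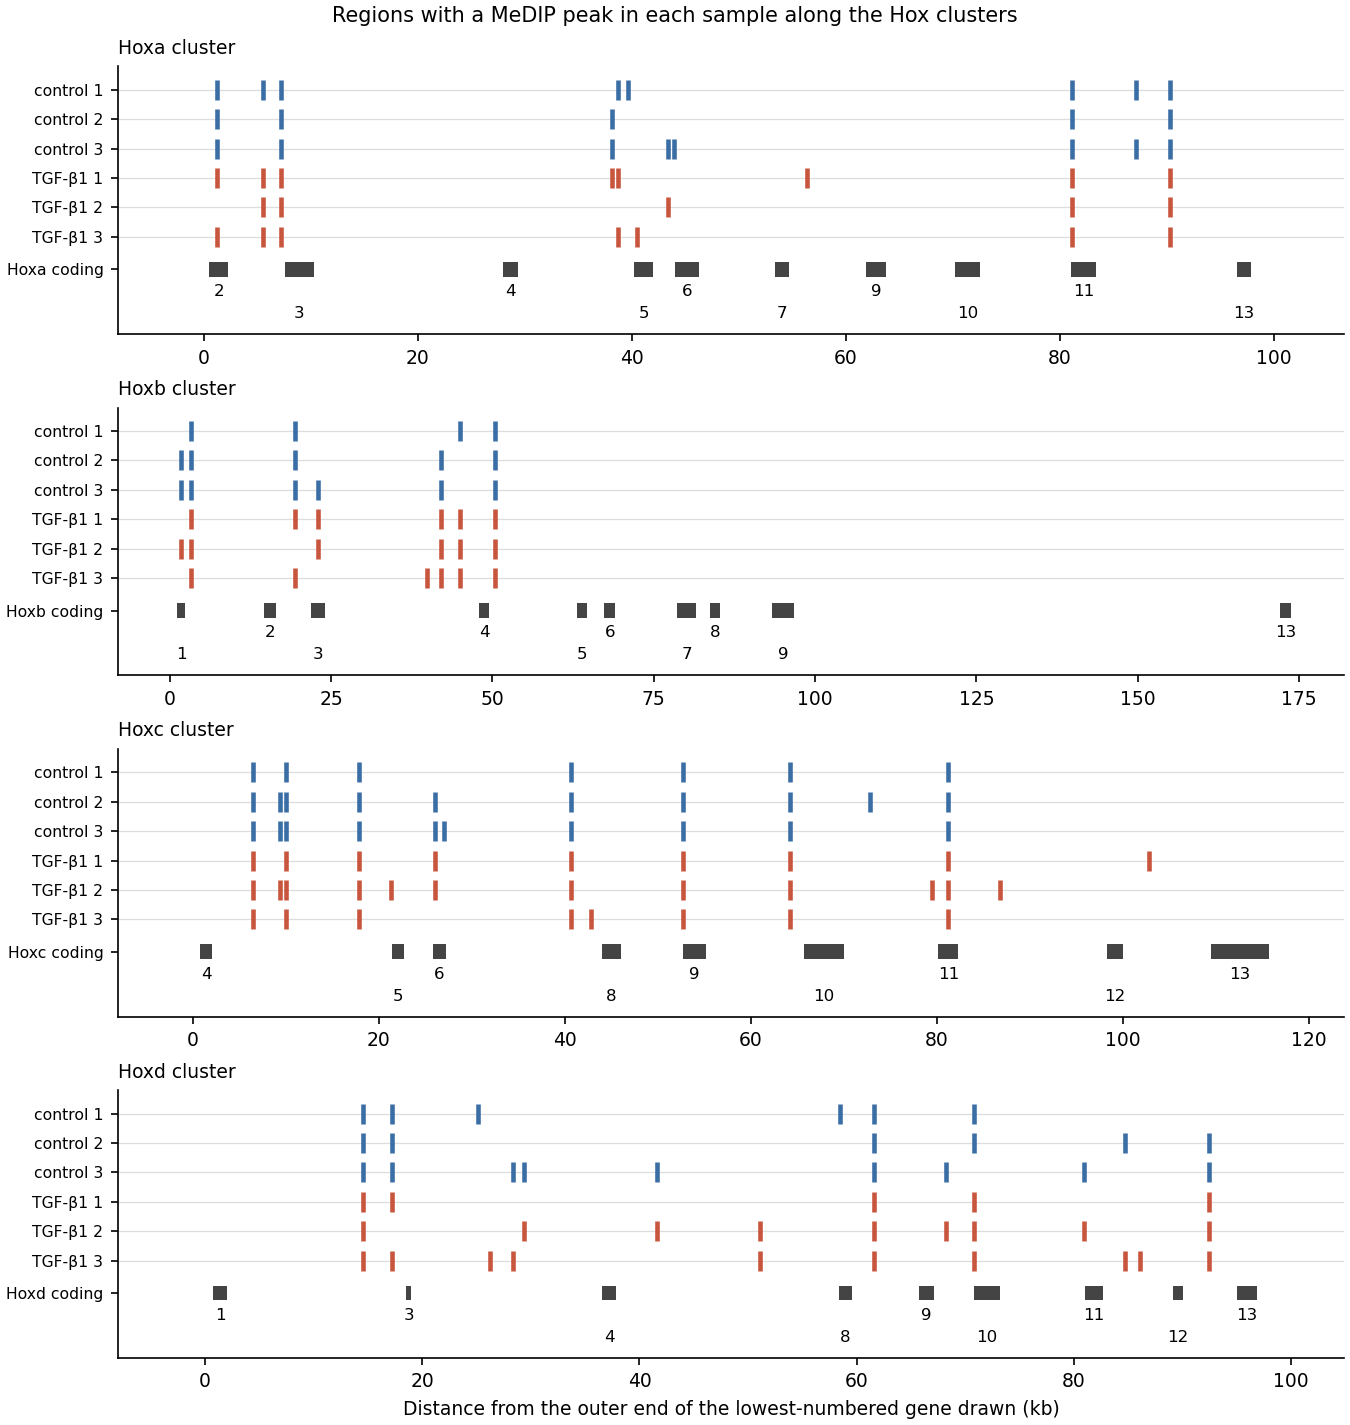
Regions with a peak (vertical ticks) in each of the 6 samples (rows, control in blue and TGF-β1 in red) along the 4 Hox clusters, against the distance in kb from the outer end of the lowest-numbered gene drawn; grey boxes are coding spans with their paralogue numbers. Ticks in the Hoxb cluster stop at Hoxb4.

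The Hox windows, which are the genes with 5 kb on either side, covered 455390 bp with 11583 CpG, or 2.54 CpG per 100 bp against 0.834 over chromosomes 1 to 19, X and Y. They held 57.1, 61.5 and 79.1 peaks per Mb in control and 65.9, 74.7 and 70.3 in treated samples. Their mean of 68.1 ± 8.22 peaks per Mb (SD, n = 6) was 1.81 times the 37.6 ± 3.48 of the rest of the genome, and every sample had more in the windows (exact two-sided sign-flip permutation test, p = 0.03125, the smallest that 6 samples allow, with the same adjusted p). Counted against CpG, the order turned. There were 2.68 ± 0.323 peaks per 1000 CpG in the Hox windows and 4.505 ± 0.418 in the rest of the genome, a ratio of 0.594, with fewer in the windows in 6 of 6 samples (exact sign-flip permutation test, p = 0.03125 and the same adjusted p). The clusters thus had more peaks for their length and fewer for their CpG than the rest of the genome, in every sample.

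Along the clusters, peaks were densest at the anterior end. The genes were divided into anterior (groups 1 to 4, 12 genes), central (groups 5 to 8, 11 genes) and posterior (groups 9 to 13, 16 genes). The anterior windows held 3.75, 4.01 and 5.08 peaks per 1000 CpG in control and 4.28, 4.55 and 4.55 in TGF-β1-treated samples. The central windows held 2.05, 1.70 and 2.73 in control and 2.39 in each treated sample, and the posterior windows 1.22, 1.63 and 1.83 in control and 1.43, 2.04 and 1.63 in treated samples. In each sample the anterior windows were the highest and the posterior the lowest.

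The means over the 6 samples were 4.37 ± 0.468 (SD) anterior, 2.27 ± 0.352 central and 1.63 ± 0.288 posterior. The anterior windows exceeded the central by 2.097 and the posterior by 2.74 peaks per 1000 CpG, and the central exceeded the posterior by 0.644 (exact sign-flip permutation test, adjusted p = 0.03125 for each of the 3). The last of these was lost under 5 of the other settings tried, with an adjusted p of 0.719 for peaks with a fold enrichment of at least 5, whereas both anterior differences held in them. The windows differed in base composition in the opposite order, with 2.16 CpG per 100 bp anterior, 2.71 central and 2.82 posterior. The part of this difference in the result was not tested beyond the counting per CpG. Without control replicate 3 and TGF-β1 replicate 2 the 3 differences were 2.02, 2.67 and 0.655, with the same sign in each of the other 4 samples.

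Of the single clusters, Hoxa and Hoxc followed this order, while Hoxb had no peak in central or posterior windows. In Hoxd the anterior and central means were within their spread of each other (SD 1.11 and 1.13). In peaks per 1000 CpG, means of anterior, central and posterior windows were 4.59, 2.75 and 1.03 for Hoxa, 8.65, 4.36 and 2.34 for Hoxc, and 3.02, 3.09 and 2.19 for Hoxd. For Hoxb they were 4.31, 0 and 0, with all 33 Hoxb peaks at the anterior genes. The anterior window of Hoxc holds a single gene, Hoxc4, and the central window of Hoxd a single gene, Hoxd8. Between clusters, the mean density was 2.62 ± 0.493 for Hoxa, 1.92 ± 0.292 for Hoxb, 3.61 ± 0.678 for Hoxc and 2.65 ± 0.734 for Hoxd (peaks per 1000 CpG, SD, n = 6). Hoxc exceeded Hoxb by 1.69 in 6 of 6 samples and Hoxa exceeded Hoxb by 0.697 in 6 of 6, yet no pair of clusters passed the exact sign-flip permutation test after adjustment over the 6 pairs (adjusted p = 0.075 for 5 pairs and 0.969 for Hoxa against Hoxd, which differed by -0.0347). With 6 samples the smallest p of this test is 0.03125, so a pair at that value could pass over 6 pairs only where at least 4 were at it, and 2 were. Per Mb in place of CpG, the means were 76.0 for Hoxa, 46.1 for Hoxb, 77.8 for Hoxc and 73.4 for Hoxd, so that Hoxa minus Hoxc was -1.82 and Hoxc minus Hoxd 4.39 peaks per Mb (exact sign-flip permutation tests, adjusted p = 0.844 for both).

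**Figure D3:**
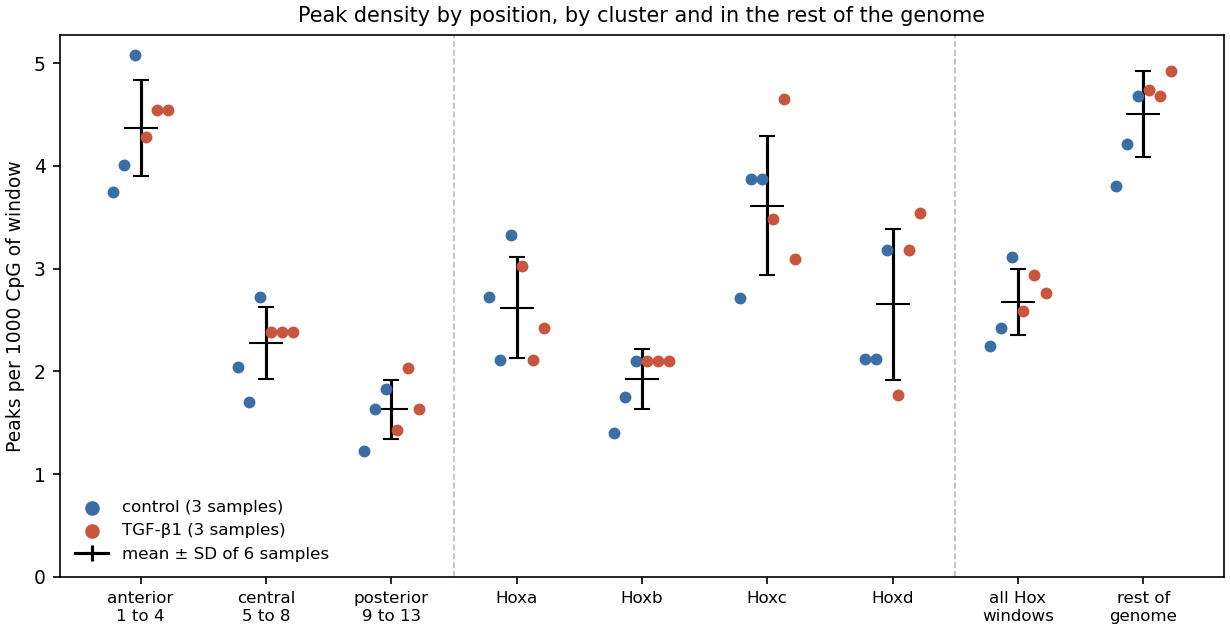
Peaks per 1000 CpG (vertical axis) in the anterior, central and posterior Hox windows, in the 4 clusters, in all Hox windows and in the rest of the genome; each point is 1 sample (blue control, red TGF-β1) and bars are the mean ± SD of 6 samples. The anterior points, 3.75 to 5.08, lie above all central and posterior points.

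In each sample Hox peaks lay more often in untranslated exons and upstream of genes, and less often in introns, than peaks at other genes did, although the adjusted test was narrowly missed. Of the Hox peaks, a mean of 22.1 ± 4.06% (SD, n = 6) had their summit in untranslated exon sequence, against 3.69 ± 0.0814% of other peaks in or within 5 kb of protein-coding genes. Peaks in the 5 kb upstream of genes made up 23.4 ± 2.57% against 6.27 ± 0.171%, and intron peaks 32.5 ± 4.11% against 71.4 ± 1.55%. These 3 differences had the same sign in 6 of 6 samples, and their adjusted p was 0.0521 each, just outside 0.05 (exact sign-flip permutation test, adjusted over 5 elements). Each had the smallest p that 6 samples allow, and over 5 elements at least 4 would have had to reach it for any to pass. The share in coding sequence was 16.3 ± 2.69% against 13.7 ± 1.79% (adjusted p = 0.156) and that downstream 5.83% against 4.86% (adjusted p = 0.3125, exact sign-flip permutation tests). The lengths of these elements in Hox and other genes were not compared.

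At transcription start sites no difference from other genes was detected. A summit lay within 500 bp of a start for 6.41 ± 2.15% of Hox genes and 6.67 ± 1.03% of other protein-coding genes (SD, n = 6), a difference of -0.261 percentage points with p = 0.875 (exact sign-flip permutation test). The mean for 119 homeobox genes outside the clusters was 4.62%. Over all samples, 5 of the 39 Hox genes (12.8%) had such a peak at least once, against 11.9% of other genes and 10.1% of the other homeobox genes. They were Hoxc4 (all 6 samples), Hoxb3 (control replicate 1 and all 3 TGF-β1 replicates), Hoxd3 (control replicates 1 and 3 and TGF-β1 replicate 3), Hoxc6 (control replicate 3) and Hoxa7 (TGF-β1 replicate 1). Around the starts the median was 4.80 CpG per 100 bp for Hox and 3.85 for other genes. Of other genes at least as CpG-dense there as the lowest Hox gene, 14.2% had such a peak at least once. For those at least as dense as the median Hox gene it was 7.29%.

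Hox peaks themselves had a slightly higher enrichment and more CpG than other peaks in each of the 6 samples, without passing the adjusted test. Fold enrichment, the pileup at the summit over the local background as the peak caller gives it, had a median over Hox peaks of 6.37, 6.82 and 6.52 in control and 6.66, 6.61 and 6.29 in treated samples. For all other peaks it was 6.27, 6.25 and 6.34 in control and 6.10, 6.14 and 6.16 in treated samples, lower in each sample by 0.338 on average. CpG per 100 bp averaged 3.39 ± 0.316 against 2.60 ± 0.0857 (SD, n = 6), and was also higher in 6 of 6 samples. Neither passed after adjustment over the 4 measures (exact sign-flip permutation test, adjusted p = 0.0625 for both). Both had the smallest p that 6 samples allow, and over 4 measures at least 3 would have had to reach it. With peaks inside the genes alone, without the 5 kb on either side, the difference in fold enrichment was 0.0373 (exact sign-flip permutation test, p = 0.781). Hox peaks were longer by 43.7 bp on average over all 6 samples (391 against 347 bp), and were longer in 5 of the 6 (adjusted p = 0.0833). Their pileup per 1000000 reads was 2.07 against 1.83 (adjusted p = 0.125, exact sign-flip permutation tests for both).

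The question of the comparison was whether TGF-β1 changed DNA methylation. Control samples had 26, 28 and 36 Hox peaks and treated samples had 30, 34 and 32. The groups overlapped, with both the fewest and the most peaks in control samples. The means were 30 ± 5.29 and 32 ± 2 peaks (SD, n = 3 each), and the difference of 2 peaks was within the spread (exact two-sided permutation test, p = 0.7, where 3 samples against 3 cannot go below 0.1). As a share of all peaks of the sample, Hox peaks made up 0.0319, 0.0310 and 0.0358% in control and 0.0295, 0.0339 and 0.0303% in treated samples (exact permutation test, p = 0.5).

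The single clusters overlapped between the groups as well. Hoxa had 9, 7 and 11 peaks in control and 10, 7 and 8 in treated samples, Hoxb 4, 5 and 6 against 6, 6 and 6, Hoxc 7, 10 and 10 against 9, 12 and 8, and Hoxd 6, 6 and 9 against 5, 9 and 10. The differences in means were -0.667, 1, 0.667 and 1 peaks, each with an adjusted p of 0.9 (exact permutation test, n = 3 each). Without control replicate 3 and TGF-β1 replicate 2, the Hoxa difference was 1 peak, that of Hoxc 0 and that of all Hox peaks 4.

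No Hox region separated the groups completely, with a peak in each sample of the one and no sample of the other. In the genome 0.948% of regions were called in all TGF-β1-treated and no control samples and 0.233% in all control and no treated samples. Regions called in at least 2 more treated than control samples numbered 3 of 56, near Hoxa3, Hoxb4 and Hoxd8, against 7.85% in the genome. The reverse held for 1 of 56, upstream of Hoxa11, against 3.12%. The Hoxb4 region, which covers a start site of a long Hoxb3 transcript, was called in control replicate 1 and in all 3 treated samples.

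Of the 56 Hox regions, 16 (28.6%) were called in all 6 samples, against 24.5% of all regions. Hoxc held 7 of them, Hoxa 5, and Hoxb and Hoxd 2 each. The other 40 regions were called in 1 sample (16), 2 (9), 3 (5), 4 (4) or 5 (6). Region length ran from 282 to 865 bp with a median of 424.5, and the number of CpG from 6 to 30 with a median of 14. A Hox start site lay within 500 bp for 7 regions and within 1000 bp for 13.

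For the 16 shared regions the highest pileup, which counts the reads, lengthened to the fragment, that cover the summit, was compared between groups. Values are given as deposited, not scaled for depth. The log2 fold changes, TGF-β1 over control, were taken after centring each sample on its median over 41744 shared regions and tested with limma over all of them.

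Among the anterior genes, in the 3′ untranslated region of Hoxa3 (chr6:52119227-52119853) pileups were 23, 26 and 30 in control and 30, 26 and 20 in treated samples, with a log2 fold change of -0.29 (SE 0.215), which was -0.087 without TGF-β1 replicate 3 and -0.43 without TGF-β1 replicate 1. The groups overlapped there over nearly their whole range.

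The Hoxb4 region (chr11:96178802-96179545, an untranslated exon), with the highest fold enrichment in its cluster (mean 9.45), had pileups of 21, 16 and 27 in control and 32, 25 and 37 in treated samples. Upstream of Hoxb1 (chr11:96226072-96226512, 767 bp before the start) they were 33, 25 and 46 in control and 28, 30 and 27 in treated samples. Both pairs of groups overlapped, and control replicate 3 was the highest at Hoxb1. The log2 fold changes were 0.35 (SE 0.214) at Hoxb4 and -0.47 (SE 0.203) at Hoxb1, the lowest of the 16.

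The peak upstream of Hoxb1 and peaks in introns of Hoxc11 and Hoxc4 lay outside coding sequence. Windows of 120 bp around the median summits are shown on the plus strand of mm9, with CpG in capitals, to show the CpG around the summits of peaks called in all 6 samples. They are chr11:96226243-96226362 (4 CpG), chr15:102786040-102786159 (5 CpG) and chr15:102860772-102860891 (5 CpG). The 6 summits lay within 27 bp of each other at Hoxb1 and within 30 bp at Hoxc4.
Hoxb1 upstream: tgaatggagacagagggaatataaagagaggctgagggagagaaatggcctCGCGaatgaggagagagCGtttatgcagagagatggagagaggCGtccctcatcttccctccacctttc
Hoxc11 intron: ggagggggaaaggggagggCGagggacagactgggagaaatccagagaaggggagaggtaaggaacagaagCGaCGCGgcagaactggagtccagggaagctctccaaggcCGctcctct
Hoxc4 intron: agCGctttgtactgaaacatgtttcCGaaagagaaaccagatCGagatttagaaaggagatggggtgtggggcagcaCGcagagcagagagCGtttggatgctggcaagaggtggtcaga

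At the start of a Hoxc4 transcript (chr15:102849142-102849602, summit 21 bp inside it), assigned to the central gene Hoxc5 by nearest coding sequence, pileups were 22, 31 and 35 in control and 40, 30 and 32 in treated samples, and the log2 fold change was 0.0063 (SE 0.2017). The intron regions of Hoxc4 had 15, 32 and 52 against 40, 45 and 33 (chr15:102856780-102857568) and 27, 39 and 42 against 28, 33 and 55 (chr15:102860593-102861028). At the first of these the control samples alone held both the lowest and the highest value. The log2 fold changes were 0.19 (SE 0.253) and -0.16 (SE 0.208). At Hoxd3, downstream of the gene (chr2:74588397-74588899), pileups were 20, 23 and 28 in control and 31, 24 and 29 in treated samples (log2 fold change 0.03, SE 0.206), and the groups overlapped.

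Among the central genes, the region between Hoxc8 and Hoxc6 (chr15:102826370-102826895), assigned to Hoxc8 and with the highest fold enrichment of its cluster (mean 8.92), had pileups of 22, 31 and 25 in control and 35, 46 and 34 in treated samples. The groups did not overlap in raw pileup but overlapped after centring, and the log2 fold change was 0.34 (SE 0.208), or 0.068 without control replicate 3 and TGF-β1 replicate 2. Upstream of Hoxd8 (chr2:74541184-74542032, 1083 bp before the start), a gene of the trunk, they were 21, 18 and 25 in control and 20, 20 and 18 in treated samples. These overlapped in raw pileup, whereas after centring every treated sample lay below every control sample, with a log2 fold change of -0.35 (SE 0.213).

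Of the posterior genes, Hoxa11 had the strongest Hox peak. Over its homeobox (chr6:52193284-52193738) pileups were 44, 44 and 51 in control and 48, 39 and 45 in treated samples, and fold enrichments 14.6, 12.3 and 14.4 in control and 14.3, 10.4 and 12.03 in treated samples. The groups overlapped in raw pileup and in fold enrichment, whereas after centring every treated sample lay below every control sample, with a log2 fold change of pileup of -0.30 (SE 0.165). Between Hoxa11 and Hoxa13 (chr6:52202314-52202927) pileups were 21, 17 and 18 in control and 20, 18 and 23 in treated samples, with a log2 fold change of -0.10 (SE 0.214). Only 1 of the 6 summits of this region lay inside a Hox window.

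The Hoxc9 region (chr15:102814172-102814921), over coding sequence with the homeobox, had pileups of 28, 18 and 31 in control and 26, 36 and 38 in treated samples. The region between Hoxc10 and Hoxc9 (chr15:102802625-102803489) had 17, 20 and 32 against 24, 38 and 25, and the Hoxc11 intron (chr15:102785835-102786369) 13, 27 and 31 against 31, 27 and 43. All 3 overlapped between the groups, and the log2 fold changes were 0.17 (SE 0.215), 0.13 (SE 0.231) and 0.35 (SE 0.239). The value at Hoxc11 was 0.0068 without control replicate 1, the lowest sample there, and 0.53 without control replicate 2. The homeobox region of Hoxd10 (chr2:74532171-74532600), the Hoxd region with the highest fold enrichment (mean 7.78), was called in 5 samples and so was not among the 16. Its pileups were 25 and 16 in control replicates 1 and 2 and 35, 25 and 25 in treated samples.

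In raw pileup, 2 of the 16 regions had every treated sample above every control sample (that at Hoxc8 among them), against 14.6% of the 41744 regions, and 0 had the reverse, against 0.309%. After centring, 0 had every treated sample above every control sample, against 4.33%, and 2, at Hoxa11 and Hoxd8, had the reverse, against 4.96%. By limma 0 of the 16 passed an adjusted p of 0.05, as did 0 of all 41744 (0%), and the adjusted p of the 16 ran from 0.999132 to 0.999832. At an unadjusted p below 0.05, 1 of 16 was lower with TGF-β1, against 2.22% of all regions, and 0 were higher, against 1.96%. The one lower region was that upstream of Hoxb1 (limma, unadjusted p = 0.0271, 95% interval of the log2 fold change -0.883 to -0.0567). Leaving out 1 sample at a time, its limma p-values ran from 0.00577 without control replicate 2 to 0.166 without control replicate 3, the highest of the samples there, and were above 0.05 also without TGF-β1 replicate 1 (0.0547) or 3 (0.0975). On fold enrichment in place of pileup the p was 0.125 and on pileup per 1000000 reads 0.00998 (limma). Over regions called in 3 or more samples, 2 of 31 Hox regions were lower at an unadjusted limma p below 0.05, Hoxb1 (0.0312) and Hoxa11 (0.0383). There 0 were higher and 0 passed adjustment, and of all 98681 regions 1427 were lower and 2570 higher. Without control replicate 3 and TGF-β1 replicate 2 together the p at Hoxb1 was 0.129, and the single region of the 16 below 0.05 was instead a higher one, at Hoxb4 (log2 fold change 0.58, limma, unadjusted p = 0.0396). In that setting 812 of all 41744 regions were higher and 813 lower below 0.05. Leaving out 1 sample at a time, 698 to 1236 of all 41744 regions were lower below 0.05 and 632 to 1264 higher. Among the 16, lower regions below 0.05 numbered 0 or 1 and higher ones 0 or 1. Among lower regions the next smallest unadjusted limma p-values were 0.0801 at Hoxa11 and 0.107 at Hoxd8. Those of the higher regions at Hoxc8 and Hoxb4 were 0.113 and 0.115.

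Fold changes were above 0 for 10 of the 16 regions (62.5%) and below 0 for 6, with a median of 0.080 on the log2 scale. Over all shared regions 49.2% were above 0. Scaled per 1000000 reads in place of centring, which moved the median of all regions to -0.096, the Hox regions divided into 8 and 8 with a median of -0.011. On that scale 3 of the 16 were lower at an unadjusted limma p below 0.05 (Hoxb1, Hoxa11 and Hoxd8), against 5.72% of all regions, and 0 were higher, against 0.508%. Without control replicate 1, the sample with the fewest Hox peaks, the median was -0.035.

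**Figure D4:**
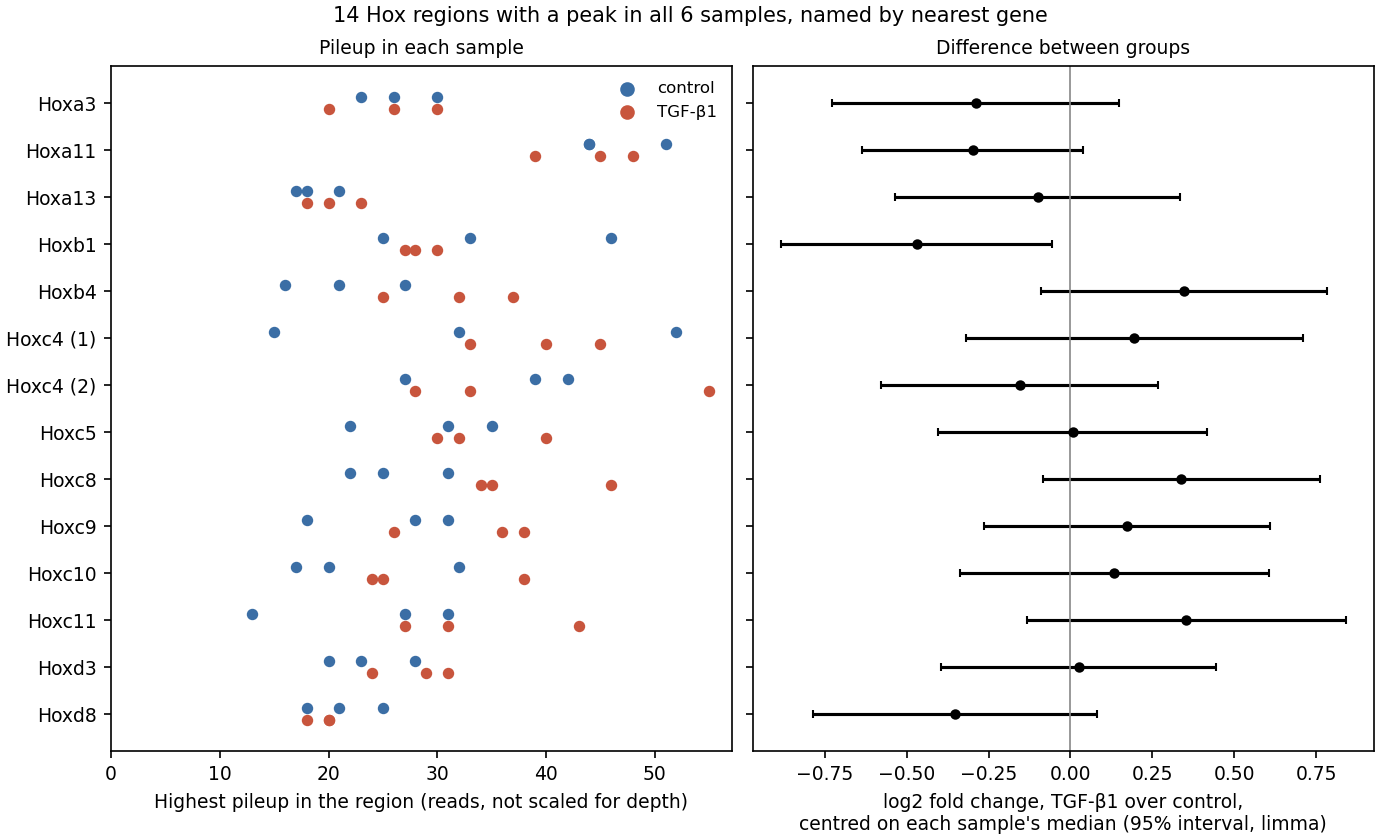
Left, highest pileup in reads in each sample (blue control, red TGF-β1) for 14 of the 16 Hox regions called in all 6 samples, named by the nearest Hox gene; right, the log2 fold change of TGF-β1 over control after centring, with its 95% limma interval. Before any adjustment the interval lies wholly below 0 at Hoxb1, where the estimate is -0.47, and spans 0 at the other 13.

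Genes that lie in or beside the clusters, and genes whose products work with Hox proteins, were counted in the same way. The 6 microRNA genes of the clusters, which repress Hox and other messages, had no peak over their hairpins. The share of all microRNA hairpins under a peak was not counted, so no contrast with them is drawn. The nearest region lay 214 bp from Mir10a, 283 bp from Mir196a-2, 311 bp from Mir615, 645 bp from Mir196a-1, 2264 bp from Mir10b and 11211 bp from Mir196b. Of 12 other noncoding processed transcripts in the cluster spans 7 held a summit, and of 5 long intergenic noncoding RNA genes 3 did. The shares over all genes of these types were not counted, so whether these differ was not tested. A region in Gm16258, between Hoxc12 and Hoxc11 (chr15:102775605-102776361), was called in all 6 samples but lies outside the Hox windows.

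The flanking genes differed in their peaks. Skap2, an adaptor gene beside the Hoxa cluster, had 10.8 peaks per 1000 CpG and Skap1, beside Hoxb1, had 8.11, while the homeobox genes Evx1 and Evx2 next to Hoxa13 and Hoxd13 had none in any sample and Mtx2, beside Hoxd1, had 0.398. Of the 9 TALE cofactors that bind DNA together with Hox proteins, 7 had a peak in every sample, against 56.5% of all protein-coding genes counted in the same way, and Meis3 had none, with 7.97 peaks per 1000 CpG at Meis1. The cofactors had 77, 74 and 76 peaks in control and 88, 80 and 91 in treated samples, which did not overlap in raw number, although the treated samples were also the deeper ones. As a share of all peaks of the sample they overlapped, with 0.0945, 0.0819 and 0.0757% in control and 0.0866, 0.0797 and 0.0862% in treated samples. Of their 37 shared regions, 2 were lower with TGF-β1 at an unadjusted p below 0.05, against the 2.22% of all shared regions, 0 were higher, against 1.96%, and 0 passed adjustment (limma).

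Of 12 regulators of Hox expression, 6 had a peak in every sample, against the same 56.5%, and Cdx2 and Cdx4 had none. Mll1, which keeps Hox genes active through histone methylation, had 6.43 peaks per 1000 CpG and Rarb, a retinoic acid receptor, 4.40. The 14 shared regions of this list included 0 with an unadjusted p below 0.05 (limma), against 1.96% higher and 2.22% lower of all shared regions. Of 6 kidney partners, 4 had a peak in every sample (again beside 56.5%), Eya1, Pax2 and Osr1 among them, Foxd1, a marker of the stroma, had 1 each in TGF-β1 replicates 1 and 2, and Six2, of the nephron progenitors, had 1 in control replicate 1. At Eya1, 1 shared region was lower with TGF-β1 at an unadjusted p of 0.0381, the single one of 8 in the list, against the same 2.22%, and 0 passed adjustment (limma). The 23 shared regions of the neighbouring genes included 0 with an unadjusted p below 0.05 (limma), against the same 1.96% and 2.22%. The medians of the log2 fold changes were -0.011 for cofactors, 0.048 for regulators, -0.038 for kidney partners and 0.10 for neighbours, against -0.0047 over all shared regions.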

How the data were processed

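MeDIP-seq peak lists of 3 control and 3 TGF-β1-treated samples were analysed. Per the file headers and the labels, the authors mapped reads to mm9 with BWA and called peaks in each sample with MACS2 2.1.0.20150731 (q cutoff 0.01, no input, regional background over 10 kb). Pileup, as deposited, is a signal not scaled for depth. Fold enrichment, as deposited, is a ratio of pileup to the local background that MACS2 estimates. Each deposited peak also carries a p and a q, which MACS2 writes as -log10. A peak list omits what lay below its threshold, and the lowest pileup called was 8 reads in control and 9, 9 and 10 in treated samples, so absence of a peak depends on depth.

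Genes came from GENCODE vM1 on the same assembly, and sequence was read from it. Joining was checked with bedtools 2.31.1 (169591 regions on placed chromosomes both ways), and 411 to 560 peaks per sample lay elsewhere. A peak belonged to the Hox gene nearest to its summit by the shortest coding transcript holding the homeobox. A peak density is the number of summits over the CpG or the length of a window. Members and lists were chosen with earlier results of these data known. Hox regions in all 6 samples were described, with the strongest region, the 3 smallest p-values in each direction and the 3 genes with most peaks per cluster, and results for some of the genes and sequences these rules select are not reported here. Exact permutation and sign-flip tests compared single values, with Benjamini-Hochberg adjustment within a family. Pileups were tested with limma 3.58.1 in R 4.3.3 (trend), otherwise Python 3.11.15 was used. In simulated data at the 41744 regions limma recovered 95 of 101 changes of 1 on the log2 scale and 99 of 99 of 2, with 14 false calls. Every simulated region had the same spread, the median of the real regions, so recovery at regions with a wider spread was not tested. Alternatives were a stricter q or enrichment, flanks of 0 and 10 kb, any overlap, whole clusters, joining up to 200 bp apart, other scalings, start windows of 1000 bp, leaving out samples and a replicate block. The whole clusters and the joint removal of control replicate 3 and TGF-β1 replicate 2 were added after seeing the data.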

Additional observations from a re-analysis of the deposited data

How the results depend on the processing

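Of 572 values recomputed under other settings, 498 kept their direction and their side of the threshold or, where too few samples were left for the test to pass, kept their direction within 1 SD, among them both densities against the rest of the genome and both anterior differences. With 5 samples the smallest p of a sign-flip test is 0.0625, so leaving out a sample was judged by direction there. The cause of the changes below was not tested. With peaks restricted to a -log10 q of 5 or more, the Hox share differed by 0.000238 percentage points and Hoxa by 0 peaks (TGF-β1 minus control), and Hox peaks passed the test against other peaks in fold enrichment (0.338), length (45.5 bp) and CpG per 100 bp (0.783). At a fold enrichment of at least 5, the share differed by 0.00140, Hoxa by 0.333 peaks, and central minus posterior was 0.0753 per 1000 CpG, no longer passing. Central minus posterior also failed with flanks of 0 (0.278) and 10 kb (0.236), with any overlap (0.543) and over whole clusters (0.146).

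With flanks of 0, Hoxa differed by 0.333 and Hoxc by 0 peaks, and the cluster differences per 1000 CpG were 1.14 (Hoxa minus Hoxb), -1.45 (Hoxa minus Hoxc), 0.777 (Hoxa minus Hoxd), -2.59 (Hoxb minus Hoxc) and 2.23 (Hoxc minus Hoxd). With 10 kb they were 0.666, -1.22, 0.0502, -1.88 and 1.27, and over whole clusters 0.817, -1.25, -2.07 and 1.21 without the Hoxa and Hoxd pair. These passed, except Hoxa minus Hoxd, and Hoxb minus Hoxd passed in none of these settings. Hoxa minus Hoxd was 0.116 with any overlap and 2.57 per Mb. Element differences passed with flanks of 0 for coding (7.91), untranslated (27.4) and intron (-35.3) sequence, and with 10 kb for coding (3.37), untranslated (15.9), intron (-37.9) and upstream (19.7), while downstream turned to -1.11 percentage points. Start sites differed by 1.64 within 1000 bp. Per 1000000 reads, Hox peaks differed by -0.392, and Hoxc by -0.000408% of the sample's peaks. Without control replicate 3 and TGF-β1 replicate 2 together, Hoxa differed by 1 and Hoxc by 0 peaks, Hoxa minus Hoxd was 0.180 and the start sites differed by 0.184.

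Leaving out each sample in turn, TGF-β1 minus control ran from 0 (without control replicate 1) to 5 for all Hox peaks, -1.67 to 0.333 for Hoxa, 0.5 to 1.5 for Hoxb, -0.5 to 1.5 for Hoxc and 0 to 2.5 for Hoxd. Hoxa minus Hoxd ran from -0.292 to 0.182 per 1000 CpG and start sites from -0.898 to 0.488 percentage points. Regions in one group alone ran from 0 to 2 for TGF-β1 and 0 to 1 for control. The log2 fold changes that changed sign ran from -0.11 to 0.32 (Hoxc10), -0.025 to 0.33 (Hoxc9), -0.15 to 0.098 (Hoxc4 start), -0.25 to 0.53 and -0.40 to 0.038 (Hoxc4 introns), -0.060 to 0.099 (Hoxd3) and -0.20 to 0.026 (between Hoxa11 and Hoxa13). Of those that kept their sign, values ran from 0.17 to 0.51 (Hoxc8), 0.19 to 0.47 (Hoxb4), -0.64 to -0.32 (Hoxb1), -0.37 to -0.25 (Hoxa11) and -0.43 to -0.26 (Hoxd8), beside those at Hoxa3 and Hoxc11 given above. Per 1000000 reads, the Hoxc4 start was -0.085 and Hoxd3 -0.065, on fold enrichment they were -0.0064 and -0.11 and the Hoxa13 side 0.030, and over regions called in 3 or more samples the Hoxc4 start was -0.018. With the replicate block, the difference stayed 2 peaks (exact sign-flip permutation test, p = 0.75) and 0 Hox regions passed limma (730 higher and 803 lower regions at an unadjusted p below 0.05, of 41744). The deviations of same-numbered samples had correlations of -0.046, 0.043 and -0.13. These cannot show whether same-numbered samples were handled together, and the labels do not say.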

Other observations

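Between Hoxd3 and Hoxd1, outside the Hox windows, a region at chr2:74593986-74594390 was called in 5 samples, and in the clusters the spread of the 6 summits of a region called in all samples ran from 27 bp at Hoxb1 to 401 bp at Hoxd8.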
